A study of Rattus norvegicus with 12 samples.

Results

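The genes of ketone body metabolism Bdh1, Bdh2, Oxct1, Acat1 and Aacs were followed in the renal cortex of ZL, ZF and ZF-SGLT2i rats. They were taken by name from a table of 13151 genes, and all 5 were listed. All 5 were also among the 11633 genes tested, which reached at least 1 CPM in at least 4 of the 12 rats. CPM is the count of reads of a gene relative to the size of its library, after scaling of the libraries to each other. ZL (Zucker Lean) rats served as lean controls, and ZF (Zucker Fatty) rats, which have a defective leptin receptor, as the obese model. ZF-SGLT2i rats were ZF rats whose food held canagliflozin, an inhibitor of the glucose transporter SGLT2 of the proximal tubule, at 10 mg/kg/day. Treatment began at 24 weeks of age and lasted 8 weeks, with food per body weight held to that of untreated ZF rats. All rats were male and 32 weeks old, and each group had 4 rats, numbered 1 to 4 in ZL, 2 to 5 in ZF and 2, 3, 4 and 6 in ZF-SGLT2i. The methods describe kidney wedge biopsies at 16 and 24 weeks in the ZL and ZF rats of a time course. The study's text names the sequenced ZF rats as the untreated group of the treatment study, for which no biopsies are described. Whether the sequenced ZL rats had undergone them is not given in the sources used here. Between 8824980 and 12210257 reads per rat lay on genes.

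Ketone bodies are made from acetyl-CoA, chiefly in the liver, and travel in blood as acetoacetate and 3-hydroxybutyrate. Tissues that burn them, the kidney among them, take them up through monocarboxylate transporters. In the mitochondrion Bdh1 then oxidizes 3-hydroxybutyrate to acetoacetate, Oxct1 moves CoA from succinyl-CoA onto acetoacetate, and Acat1 splits the product into acetyl-CoA. Aacs activates acetoacetate in the cytosol for the synthesis of lipids, and Bdh2 is a cytosolic dehydrogenase of the same enzyme class as Bdh1. SGLT2 inhibitors are known to raise ketone bodies in blood.

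In the RefSeq annotation of GRCr8, Bdh1 lies on chromosome 11 (82806125 to 82848133) and Bdh2 on chromosome 2 (226376346 to 226397010). Oxct1 lies on chromosome 2 (54963964 to 55112303), Acat1 on chromosome 8 (62876003 to 62905080) and Aacs on chromosome 12 (36774471 to 36817835). The promoters of the 3 members that were lower in ZF than in ZL rats are shown, as the 250 bases before a RefSeq start in GRCr8, 5′ to 3′. They are chr11:82842637-82842886 (minus strand) for Bdh1, chr2:54963714-54963963 (plus strand) for Oxct1 and chr8:62905043-62905292 (minus strand) for Acat1. Capitals mark the GC box, GGGCGG on either strand, which is the letter core bound by Sp1-type factors.
Bdh1: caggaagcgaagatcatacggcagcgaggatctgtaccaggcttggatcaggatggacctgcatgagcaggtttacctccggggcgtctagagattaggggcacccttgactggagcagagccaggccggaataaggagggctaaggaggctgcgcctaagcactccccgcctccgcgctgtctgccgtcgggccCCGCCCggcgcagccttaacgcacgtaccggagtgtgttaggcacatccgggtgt
Oxct1: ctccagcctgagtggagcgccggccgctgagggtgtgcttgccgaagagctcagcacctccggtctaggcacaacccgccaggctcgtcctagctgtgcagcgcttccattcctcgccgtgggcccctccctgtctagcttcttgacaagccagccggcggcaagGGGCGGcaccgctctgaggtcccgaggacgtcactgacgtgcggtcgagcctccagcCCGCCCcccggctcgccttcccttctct
Acat1: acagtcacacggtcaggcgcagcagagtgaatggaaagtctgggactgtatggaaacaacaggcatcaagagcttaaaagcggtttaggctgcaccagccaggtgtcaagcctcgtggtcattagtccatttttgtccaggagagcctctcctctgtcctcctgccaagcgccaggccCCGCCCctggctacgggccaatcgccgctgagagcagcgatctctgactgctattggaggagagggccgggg
Bdh1 had a GC box 55 bases before the start, Acat1 had one 72 bases before it, and Oxct1 had 2, at 85 and 28 bases. The windows of Bdh2 and Aacs held none. Of the 33469 windows of this length in the table, 30.5% held a GC box, so its presence is common. The E-box CACGTG (5.59% of the windows), the D-box TTATGTAA (0.828%) and the PPAR element, the letters AGGTCA repeated after a gap of 1 base (0.0508%), each searched on both strands, had no match in the windows of the 5 members. The RefSeq spans of Bdh1, Bdh2, Acat1 and Aacs reach beyond the starts used here, so each of these windows is not that of the outermost start. A match is a description of letters and not a binding site.

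Bdh1, Oxct1 and Acat1, the mitochondrial enzymes that turn 3-hydroxybutyrate into acetyl-CoA, were all lower in ZF than in ZL rats. Bdh1 and Oxct1 fell by nearly the same log2 fold change, and Acat1 by less. Bdh2 and Aacs, the cytosolic members, overlapped between the groups. With limma on log2(CPM + 1) and Benjamini-Hochberg adjustment over all genes tested, 3 of the 5 members were called lower at an adjusted p under 0.05 and none higher. Of all genes tested 18.8% were called in this comparison, 8.19% higher and 10.6% lower. Groups without overlap were found for 19.0% of the genes, 8.67% higher and 10.3% lower, and for the same 3 members. The median log2 fold change of the 5 members was −0.35, and that of all genes tested was −0.0077.

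Bdh1 reads were at 64.0, 56.7, 56.6 and 59.5 CPM in ZL rats and at 32.3, 32.3, 29.5 and 33.4 CPM in ZF rats. Every ZF rat was below every ZL rat, and the 4 ZF rats lay close together. Bdh1 was 1.86-fold lower in ZF, from a mean of 59.2 ± 3.47 to 31.9 ± 1.69 CPM (SD, n = 4 rats each). The log2 fold change was −0.87 (SE 0.07, 95% interval −1.03 to −0.71, limma adjusted p = 1.2e-05). A two-sided exact permutation test of 4 rats against 4 gave p = 0.0286, which is the smallest it can give. Between 306 and 713 reads per rat in these groups stood behind the Bdh1 values.

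Oxct1, the enzyme that commits acetoacetate to use as fuel, had 1204, 1186, 1177 and 1118 CPM in ZL rats. In ZF rats it had 573, 698, 737 and 545 CPM, so the groups were far apart and ZF rats varied more among themselves. The mean was 1.84-fold lower in ZF, at 638 ± 93.1 against 1171 ± 37.2 CPM (SD, n = 4). The log2 fold change was −0.89 (SE 0.10, 95% interval −1.101 to −0.67, limma adjusted p = 0.00011, exact permutation p = 0.0286). At least 4989 Oxct1 reads per rat were counted in ZL and ZF rats, so counting error is small beside the spread between rats. The falls of Bdh1 and Oxct1 passed in all 23 alternative settings.

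Acat1, which also takes part in the breakdown of isoleucine, had 516, 494, 549 and 434 CPM in ZL and 345, 398, 427 and 388 CPM in ZF rats. The groups did not overlap, but the lowest ZL rat and the highest ZF rat lay close to each other. The mean fell by 21.8%, from 498 ± 48.6 to 390 ± 33.9 CPM, with a log2 fold change of −0.35 (SE 0.09, 95% interval −0.55 to −0.16, limma adjusted p = 0.017). This call was lost without ZL rat 1 (adjusted p = 0.0508) and without ZF rat 2 (0.0554). It was also lost with quantile normalization (log2 fold change −0.17, adjusted p = 0.17), with scaling to the library size without ribosomal RNA (−0.23, 0.057) and with a term for the rat number (−0.33, 0.11). With that term, here and below, only rats whose number occurs in every group carry the comparison, so it rests on fewer rats.

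Bdh2 had 73.1, 58.5, 64.2 and 60.7 CPM in ZL and 55.0, 61.3, 67.0 and 51.5 CPM in ZF rats, with groups that overlapped. Its log2 fold change was −0.13 (95% interval −0.34 to 0.09, limma adjusted p = 0.41), which leaves room for a fall up to 0.34. Aacs had 12.7, 12.2, 9.64 and 9.56 CPM in ZL and 9.78, 13.0, 8.89 and 12.5 CPM in ZF rats. The Aacs interval reached from −0.30 to 0.29 around a log2 fold change near 0 (limma adjusted p = 0.99), so the data do not show it to be equal. Aacs rested on 85 to 142 reads per rat in these groups, the fewest of the 5 members.

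**Figure D1:**
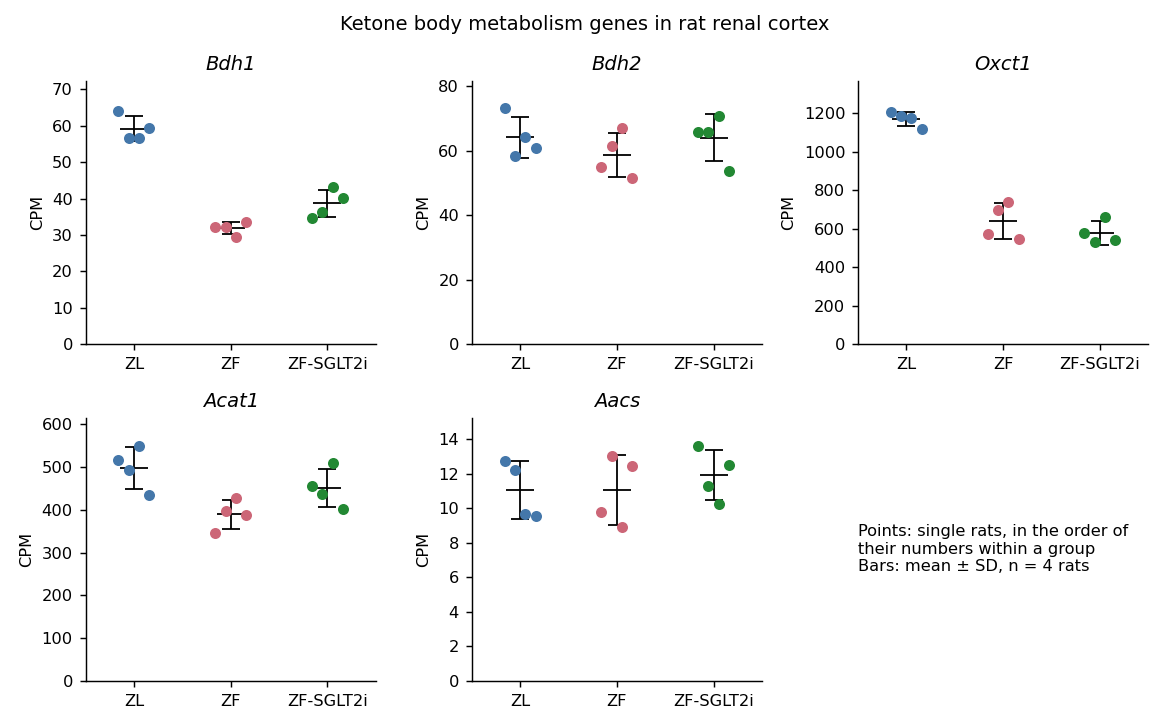
Level of each ketone body metabolism gene in CPM (vertical axis, from 0) in single rats (points) of the ZL, ZF and ZF-SGLT2i groups, with mean and SD of 4 rats (bars). Bdh1 and Oxct1 of all ZF and ZF-SGLT2i rats lie below all ZL rats, and Bdh2 and Aacs overlap between the 3 groups.

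The treated rats addressed whether SGLT2 inhibition moves these genes within the obese strain. With limma, 0 of the 5 members passed between ZF-SGLT2i and ZF rats, where 3.15% of all genes tested were called, 1.39% higher and 1.75% lower. At an unadjusted p under 0.05 there were 2, Bdh1 and Acat1, both with higher means in treated rats, and 17.2% of all genes tested (1996 of 11633) were under that threshold. On the recovered read counts, edgeR called 0 and DESeq2 called 1, Bdh1. The median log2 fold change of the members was 0.12, against 0.0064 over all genes tested.

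Bdh1 had 34.8, 36.4, 43.2 and 40.2 CPM in ZF-SGLT2i rats, all above the highest ZF rat and all below the lowest ZL rat. Its mean of 38.7 ± 3.78 CPM was 21.2% above that of ZF, with a log2 fold change of 0.27 (SE 0.07, 95% interval 0.11 to 0.43, limma adjusted p = 0.073, exact permutation p = 0.0286). In this comparison 11.2% of all genes tested had groups without overlap, 5.54% higher and 5.63% lower, and Bdh1 was the 1 member among them. DESeq2 gave an adjusted p of 0.0485, and the range over the alternatives was 0.0485 to 0.20. Between ZF-SGLT2i and ZL rats, where 27.4% of the genes were called (12.4% higher, 15.0% lower) and 28% had groups without overlap (12.9% higher, 15.1% lower), Bdh1 was 1.53-fold lower in treated rats (log2 fold change −0.61, limma adjusted p = 0.00011).

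Oxct1 had 578, 529, 663 and 543 CPM in ZF-SGLT2i rats, within or just below the range of ZF rats. The log2 fold change from ZF was −0.14 (SE 0.10, 95% interval −0.35 to 0.08, limma adjusted p = 0.53), so a rise of more than 0.08 lay outside the interval. Against ZL rats it was 2.03-fold lower (log2 fold change −1.02, limma adjusted p = 2.0e-05). Members called in that comparison were 2 of 5, both lower, where 27.4% of all genes tested were called (12.4% higher, 15.0% lower). Bdh1 and Oxct1, with nearly the same fall in ZF rats, thus had intervals of 0.11 to 0.43 and −0.35 to 0.08 in treated against ZF rats. That difference between the genes was not tested.

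Acat1 had 455, 437, 510 and 402 CPM in ZF-SGLT2i rats, between the means of the other groups for the most part. The log2 fold change was 0.21 against ZF (95% interval 0.01 to 0.41, limma adjusted p = 0.25, exact permutation p = 0.057) and −0.14 against ZL (adjusted p = 0.26). Bdh2 had 65.7, 65.9, 70.7 and 53.6 CPM and Aacs 13.6, 11.3, 10.3 and 12.5 CPM in treated rats. Both overlapped with the ZF and the ZL rats. Their log2 fold changes against ZF were 0.12 (95% interval −0.09 to 0.34) and 0.11 (−0.18 to 0.40).

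The transporter Slc16a1 (MCT1), which carries ketone bodies and lactate with a proton, had the largest fall in ZF against ZL of the 8 transport genes tested. It had 98.5, 119, 132 and 45.1 CPM in ZL, 17.2, 19.0, 40.5 and 12.1 CPM in ZF and 10.4, 11.5, 12.4 and 8.03 CPM in ZF-SGLT2i rats. ZL rat 4 was the lowest of its group and ZF rat 4 the highest of its own, and these came close to each other without overlap. Slc16a1 was 4.44-fold lower in ZF than in ZL (log2 fold change −2.13, SE 0.34, 95% interval −2.86 to −1.40, limma adjusted p = 0.0013). ZF-SGLT2i and ZF rats overlapped (−0.88, 95% interval −1.61 to −0.15, limma adjusted p = 0.19), and treated rats were 9.33-fold below ZL rats (−3.01, limma adjusted p = 5.6e-05). The −0.88 became −0.56 without ZF rat 4 and −1.11 without ZF rat 5, and passed in neither.

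Slc16a7 (MCT2), a relative with a high affinity for its substrates, had 246, 274, 225 and 208 CPM in ZL, 162, 201, 166 and 204 CPM in ZF and 216, 201, 242 and 235 CPM in ZF-SGLT2i rats. ZF rats were lower than ZL rats (log2 fold change −0.38, limma adjusted p = 0.018), and treated rats overlapped with both. The call was lost without ZL rat 1 (adjusted p = 0.052) or ZF rat 2 (0.058), with quantile normalization (0.081), with the library size without ribosomal RNA (0.074) and with a term for the rat number (0.091). Of the 8 genes tested on the list of monocarboxylate transport, 1 rose in ZF against ZL (8.19% over all genes) and 2 fell (10.6%). The median log2 fold change of the list was −0.17. The 1 that rose was Slc16a3 (MCT4), a lactate exporter, from 3.12 to 6.22 CPM (0.81, limma adjusted p = 0.0054, and 0.084 with a term for the rat number). None of the 8 passed with limma between treated and ZF rats, where 4 had an unadjusted p under 0.05 (17.2% over all genes), edgeR called 0 and DESeq2 called 1. The sodium-coupled transporters Slc5a8 and Slc5a12 were not called in any comparison. Slc16a6, described as the exporter of ketone bodies from liver cells, was lower in ZF-SGLT2i than in ZL rats (18.9 against 32.2 CPM, −0.71, limma adjusted p = 0.0034).

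**Figure D2:**
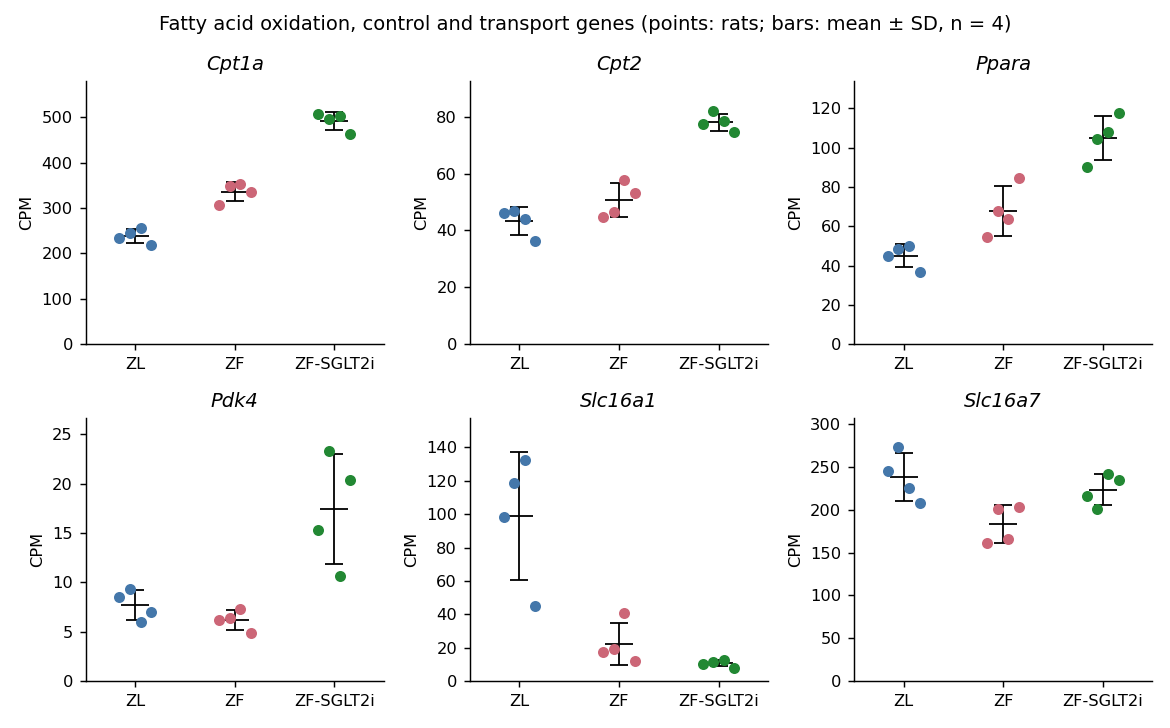
CPM (vertical axis, from 0) of Cpt1a, Cpt2, Ppara, Pdk4, Slc16a1 and Slc16a7 in single rats (points) of the 3 groups, with mean and SD of 4 rats (bars). Cpt1a and Ppara rise in steps from ZL over ZF to ZF-SGLT2i without overlap, and Slc16a1 is highest in ZL.

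**Figure D3:**
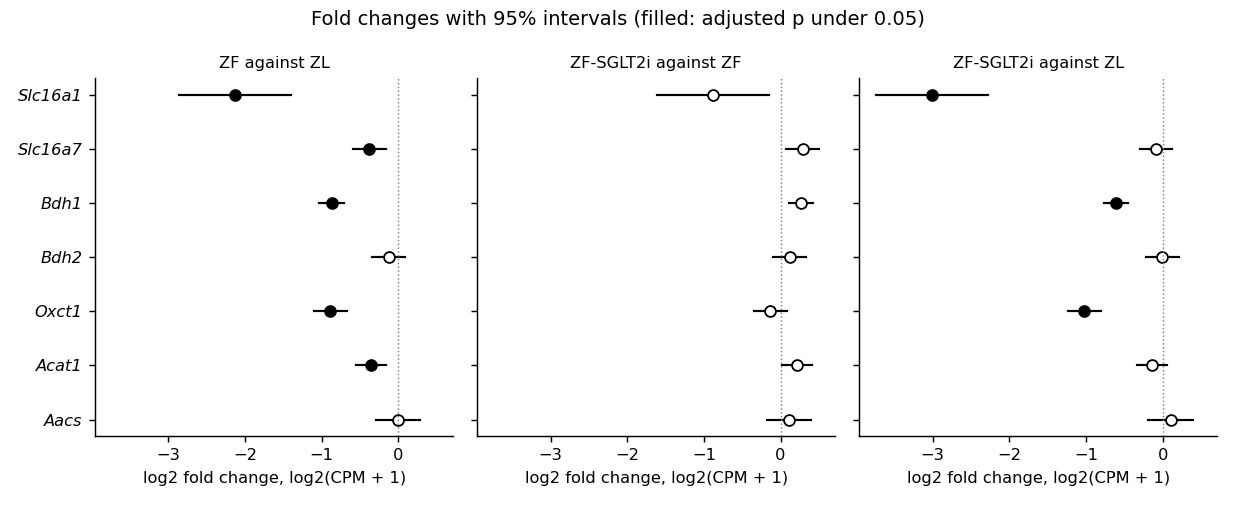
Log2 fold change (horizontal axis, on log2(CPM + 1)) with its 95% interval for the 5 members and for Slc16a1 and Slc16a7, in the 3 comparisons. Filled points passed an adjusted p of 0.05. Bdh1, Oxct1 and Slc16a1 are filled left of 0 in both comparisons with ZL, and no gene is filled in the middle panel.

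Fatty acid oxidation supplies the acetyl-CoA for ketone synthesis. Cpt1a, which admits long-chain fatty acids to the mitochondrion, lay between 219 and 256 CPM in ZL, between 307 and 353 CPM in ZF and between 463 and 507 CPM in treated rats, without overlap. It rose in ZF against ZL (log2 fold change 0.49, limma adjusted p = 0.00035) and in ZF-SGLT2i against ZF (0.55, limma adjusted p = 0.00059). Cpt2, its partner on the inner membrane, rose in treated against ZF rats, from 50.6 ± 6.00 to 78.0 ± 3.02 CPM (0.62, limma adjusted p = 0.0024). Its groups overlapped between ZF and ZL (0.22, limma adjusted p = 0.11). Of the 15 genes of the list, 1 rose in ZF against ZL, Cpt1a, and 4 fell, Echs1 (−0.63), Acadm (−0.47), Etfdh (−0.39) and Etfa (−0.32). Over all genes 8.19% rose and 10.6% fell. The Etfa groups overlapped, and its call was lost with quantile normalization, with the library size without ribosomal RNA, with the rat number as a term, and on leaving out ZL rat 1, 3 or 4 or ZF rat 2, 3 or 5 (adjusted p 0.0635 to 0.108). The fatty acid oxidation list thus moved both ways, with a median of −0.06. In ZF-SGLT2i against ZF rats 2 rose, Cpt1a and Cpt2, and none fell, with a median of 0.11, and 5 of the 15 had an unadjusted p under 0.05 (17.2% over all genes).

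Ppara, the nuclear receptor that drives Cpt1a in fasting liver, lay between 36.7 and 50.1 CPM in ZL, between 54.6 and 84.7 CPM in ZF and between 90.3 and 118 CPM in treated rats. It rose in ZF against ZL (log2 fold change 0.57, limma adjusted p = 0.0086) and in ZF-SGLT2i against ZF (0.64, limma adjusted p = 0.016). The first call was lost with a term for the rat number (adjusted p = 0.060) and the other on leaving out ZF rat 4 (0.0501) or treated rat 6 (0.0569). Of the 14 genes tested among regulators and PPAR-alpha targets, 9 had an unadjusted p under 0.05 between treated and ZF rats (17.2% over all genes). With limma's adjusted p 4 rose in ZF-SGLT2i against ZF and none fell. These were Ppara, Ehhadh, a peroxisomal enzyme of fatty acid oxidation (191 to 283 CPM, 0.57, limma adjusted p = 0.0059), Cyp4a1, a fatty acid hydroxylase, and Pdk4, which restrains pyruvate oxidation. Pdk4 had 6.14, 6.41, 7.26 and 4.81 CPM in ZF and 15.3, 23.3, 10.7 and 20.4 CPM in treated rats (1.32, limma adjusted p = 0.0032, and 0.066 with a term for the rat number). The Cyp4a1 call (0.71, limma adjusted p = 0.029) was lost with that term, and on leaving out any of ZF rats 2, 3 and 4 or ZF-SGLT2i rats 2, 3 and 6 (adjusted p up to 0.093). In ZF against ZL rats 2 rose (8.19% over all genes), Ppara and Ucp2, and 1 fell (10.6%), Ehhadh (−0.31, limma adjusted p = 0.037). The Ehhadh call was lost on leaving out ZL rat 1 or 3, ZF rat 2, 3 or 5 or treated rat 2 (adjusted p up to 0.111), and with quantile normalization (0.0911), the library size without ribosomal RNA (0.136), a fit of these 2 groups alone (0.0738) and the rat number as a term (0.216). Leaving out ZF rat 4 or treated rat 6 lowered the 4 calls of the list between treated and ZF rats to 2. Angptl4 (means of 1.43, 3.20 and 7.19 CPM for ZL, ZF and treated rats) was called between treated and ZL rats only (1.74, limma adjusted p = 0.0048).

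Acat1 shares its mitochondria with the breakdown of branched-chain amino acids, which ends in acetyl-CoA, acetoacetate and succinyl-CoA. Of the 17 genes tested, 13 fell in ZF against ZL (10.6% over all genes) and none rose (8.19%). The median log2 fold change of the list was −0.49. The largest falls were in Mccc1, of leucine breakdown (166 to 102 CPM, −0.69), Pcca, which carboxylates propionyl-CoA (84.8 to 54.2 CPM, −0.64), and Bcat2, which starts the pathway (99.95 to 65.0 CPM, −0.61). Between treated and ZF rats 3 rose, Bcat2 (to 97.7 CPM, 0.59, limma adjusted p = 0.017), Dbt (0.27, 0.023) and Pcca (0.26, 0.018), and none fell. At an unadjusted p under 0.05 there were 11 of the 17 (17.2% over all genes), and 15 of the 17 had log2 fold changes above 0, with a median of 0.21. A term for the rat number ended each of the 3 calls, as did leaving out some single rats. These were ZF rat 2 or 4 or ZF-SGLT2i rat 4 or 6 for Bcat2, ZF rat 2 or any treated rat for Dbt, and ZF or ZF-SGLT2i rat 3 for Pcca (adjusted p 0.0536 to 0.0724). The count ranged from 1 to 5 without single rats, with 1 without ZF rat 2 or ZF-SGLT2i rat 3, 4 or 6 and 5 without ZF rat 5.

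Succinyl-CoA, which Oxct1 uses up, comes from the citrate cycle. All 15 genes tested of the cycle had lower means in ZF than in ZL, and 11 were called lower (10.6% over all genes). Fh (−0.37), Mdh2 (−0.35) and Sdhd (−0.35) had the largest log2 fold changes of the called genes. The median of the list was −0.29. The count depended on the scaling and on single rats. It was 2 with quantile normalization, 3 with the library size without ribosomal RNA, which put the median log2 fold change of all genes at 0.11 in place of −0.0077, and 0 when the rat number was a term. It was 4 on leaving out ZL rat 1 or ZF rat 2 and 6 on leaving out ZL rat 3 or ZF rat 5. Between treated and ZF rats limma, edgeR and DESeq2 each called 0 of the 15, and 0 had an unadjusted p under 0.05.

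Aacs and the cytosolic thiolase Acat2 hand acetoacetyl-CoA to sterol and fatty acid synthesis. On this list of 17 genes 8 fell in ZF against ZL (10.6% over all genes) and 1 rose (8.19%), with a list median of −0.28. Acss2, which makes acetyl-CoA from acetate, had 484, 208, 250 and 798 CPM in ZL and 200, 103, 141 and 81.2 CPM in ZF rats (log2 fold change −1.59, limma adjusted p = 0.0081, and 0.086 with a term for the rat number). It had 78.8 to 91.0 CPM in treated rats. Sqle (−0.62, limma adjusted p = 0.0012), Acat2 (−0.43, 0.0099) and Insig1 (−0.44, 0.0098) also fell (0.084 for Acat2 and 0.062 for Insig1 with the rat number as a term), as did Idi1 (−0.68, 0.038), whose call was lost without ZL rat 1 or 4, any of ZF rats 2, 3 and 5 or ZF-SGLT2i rat 2 or 3 (adjusted p up to 0.107). That call was also lost with the library size without ribosomal RNA (0.064), a fit of these 2 groups alone (0.079) and the rat number as a term (0.099). The Idi1 log2 fold change ranged from −0.86 without ZL rat 3 to −0.43 without ZL rat 4. Acly, which makes acetyl-CoA from citrate, rose from 157 to 181 CPM in ZF (0.21, 0.025) and fell to 138 CPM in treated rats (−0.39, 0.0026). It was the 1 gene of the list called between treated and ZF rats, where 4 of the 17 had an unadjusted p under 0.05 (17.2% over all genes). The rise of Acly in ZF was lost with a fit of the 2 groups alone (0.061), with the rat number as a term (0.097), and on leaving out ZL rat 4 (0.063) or ZF rat 3 (0.055). Without ZL rat 4 or without ZF rat 3, 5 genes of the list were called in ZF against ZL.

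**Figure D4:**
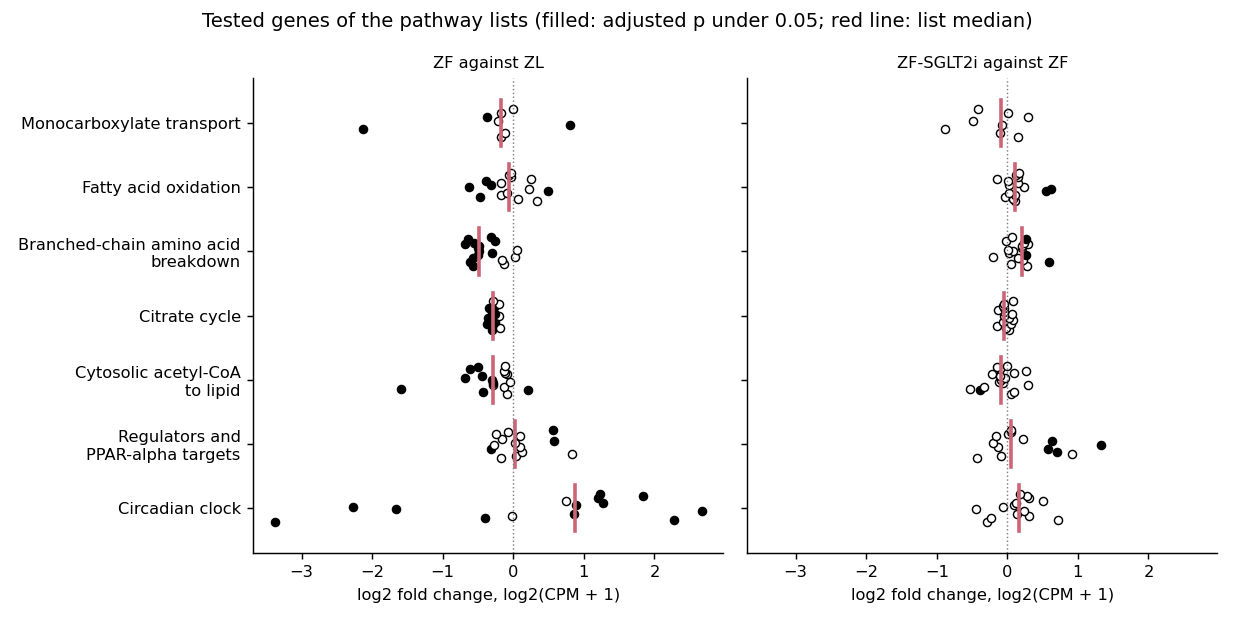
Log2 fold change (horizontal axis, on log2(CPM + 1)) of each tested gene of 7 pathway lists in ZF against ZL (left) and ZF-SGLT2i against ZF (right). Filled points passed an adjusted p of 0.05 and red lines are list medians. The medians of branched-chain amino acid breakdown (−0.49) and of the citrate cycle (−0.29) lie left of 0 on the left, and few points are filled on the right.

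Clock genes moved along with the same comparison as the members. Of the 14 tested, 8 rose (8.19% over all genes) and 4 fell (10.6%) in ZF against ZL. Dbp, an output of the clock, had 25.3, 37.5, 34.0 and 65.9 CPM in ZL, 250, 297, 182 and 286 CPM in ZF and 296, 257, 334 and 299 CPM in ZF-SGLT2i rats (log2 fold change 2.68 for ZF against ZL, limma adjusted p = 1.1e-05). Arntl, the core activator, lay between 30.4 and 51.4 CPM in ZL, between 1.42 and 7.01 CPM in ZF and between 1.82 and 2.86 CPM in treated rats (−3.38, limma adjusted p = 1.1e-05). Between treated and ZF rats limma, edgeR and DESeq2 called 0 of the 14, and 3 had an unadjusted p under 0.05, close to the 17.2% over all genes. The hour at which each rat was killed is not given in the sources used here. The part of clock phase in the differences of Bdh1, Oxct1 and Slc16a1 between ZF and ZL rats was not tested.

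Cell markers also moved with the groups. In whole cortex, fewer cells of a type and less RNA per cell cannot be told apart. All 13 markers of proximal tubule, the prevailing cell type of cortex, were listed. Their sum was 28875 ± 2326 CPM for ZL, 23966 ± 2859 CPM for ZF and 22516 ± 2065 CPM for treated rats. Lrp2 was the most abundant, and in ZF against ZL 4 of the 13 fell (10.6% over all genes) and 2 rose (8.19%). The 12 markers of injured tubule, led by Spp1, summed to 867 ± 68.9, 1779 ± 684 and 1511 ± 335 CPM. In ZF against ZL 8 of the 12 rose (8.19% over all genes). The 9 markers of collecting duct, led by Aqp2, summed to 1869 ± 368, 2056 ± 356 and 2879 ± 182 CPM. Every treated rat (2726 to 3139 CPM) lay above every ZF rat (1626 to 2412 CPM). All 9 had log2 fold changes above 0 between treated and ZF rats (median 0.46). Of these, 7 had an unadjusted p under 0.05 (17.2% over all genes), and 1, Aqp2, was called with limma. Of the 8 podocyte markers, led by Podxl, 5 rose in ZF against ZL (8.19% over all genes). The podocyte sums were 1464 ± 190.1, 1903 ± 196 and 1951 ± 215 CPM for ZL, ZF and treated rats. The sums of thick limb and distal tubule (means of 7248, 7503 and 7317 CPM for ZL, ZF and treated rats), inner medulla (148, 135 and 170.1), endothelium (660.2, 763 and 765), macrophages and lymphocytes (77.5, 101 and 81.5) and fibroblasts and smooth muscle (464, 579.6 and 375) overlapped between ZL and ZF rats. The inner medulla sum was 158 to 200 CPM in treated rats, all above the 120 to 151 CPM of ZF rats. Its most abundant gene, Aqp4, is also on the collecting duct list. Of the 5 inner medulla genes 3 were tested between treated and ZF rats, 2 with log2 fold changes above 0 and 1 below. Their median was 0.02, and none of them was called. The fibroblast and smooth muscle sum was 368 to 390.5 CPM in treated rats, all below the 423 to 716 CPM of ZF rats. All 6 of these genes had negative log2 fold changes between treated and ZF rats (median −0.61), and Pdgfrb (−0.50, limma adjusted p = 0.031) and Dcn (−1.11, limma adjusted p = 0.0083) fell. The Pdgfrb call was lost on leaving out ZF rat 2, 3 or 4 or treated rat 2, 3 or 4 (adjusted p up to 0.0975). Beyond the shares given next for the proximal tubule list, the part of cell makeup in the results was not tested.

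Set against the summed proximal tubule markers, Oxct1 amounted to 4.03, 4.11, 3.79 and 4.36% in ZL, 2.53, 3.01, 2.61 and 2.496% in ZF and 2.42, 2.29, 2.81 and 2.79% in ZF-SGLT2i rats. All ZF rats stayed below all ZL rats (log2 ratio of the means −0.61, exact permutation p = 0.0286). Bdh1 gave 0.206 ± 0.0216, 0.135 ± 0.0210 and 0.173 ± 0.0273%, again lower in ZF than in ZL (−0.61, exact permutation p = 0.0286). The Bdh1 share of treated rats overlapped with that of ZL (−0.25, exact permutation p = 0.14) and of ZF rats (0.36, exact permutation p = 0.057), so on this scale the fall from ZL to treated rats did not pass. The Oxct1 share of treated rats was below that of ZL (−0.66, exact permutation p = 0.0286) and overlapped with ZF (−0.05, exact permutation p = 0.63). For Acat1 this share was 1.72 ± 0.0330, 1.63 ± 0.132 and 2.01 ± 0.130%. The Acat1 share overlapped between ZF and ZL (−0.08, exact permutation p = 0.34) and was higher in treated than in ZF (0.30) and ZL rats (0.22), both with an exact permutation p = 0.0286. The latter is the opposite direction from the fold change of −0.14 in CPM. The Bdh2 share was likewise higher in treated than in ZF (0.21) and ZL rats (0.35), and the Aacs share higher than in ZL (0.48), each with an exact permutation p = 0.0286. Bdh2 and Aacs overlapped between ZF and ZL (0.14 and 0.29, exact permutation p = 0.23 and 0.2), as did Aacs between treated and ZF rats (0.18, exact permutation p = 0.4). The Slc16a1 share did not overlap between any groups (−1.91 from ZL to ZF, −0.93 from ZF to treated and −2.84 from ZL to treated rats, exact permutation p = 0.0286 each). The Slc16a7 share overlapped in all 3 comparisons (−0.09, 0.37 and 0.28 in the same order, exact permutation p = 0.63, 0.11 and 0.086). The summed list itself was lower in ZF and treated rats, which raises every share there. Lrp2 alone made up 32.8% of the sum on average. Between treated and ZL rats 6 of the 13 summed markers were called lower, Lrp2 among them (15.0% over all genes), and 1 higher (12.4%). The shares cover 7 genes in 3 comparisons with p-values that were not adjusted, and 4 rats against 4 cannot go below 0.0286.

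Liver markers were near 0 in all groups, though their sum was highest in treated rats. Of the 4 liver markers (Alb, Apoa1, Ttr, Serpina1), 3 were listed, and their sum lay between 0.347 and 1.17 CPM in ZL, between 0.401 and 1.45 CPM in ZF and between 1.67 and 2.73 CPM in treated rats. Alb, the defining marker, was at most 0.34 CPM in any rat. The most abundant was Serpina1, with a mean of 0.398 CPM in ZF and 1.75 CPM in treated rats. Its ZF mean lay under the 1 CPM of the filter. Serpina1 thus entered the test through the rats where it was high, and no call is read from it. Ttr was not analysed here. The adipocyte list, 5 of 8 genes listed, summed to 109 ± 18.5, 71.8 ± 6.72 and 77.9 ± 8.86 CPM with Lpl the most abundant, while its defining genes Plin1 and Fabp4 stayed below 1 CPM in all rats. The 3 listed adrenal markers summed to at most 2.87 CPM, and the 3 listed blood markers, led by Hba1, to 2.17 ± 1.103, 8.11 ± 4.74 and 13.6 ± 9.37 CPM.

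Over the 12 rats, the gene whose log2(CPM + 1) was most like that of Bdh1 was, of the 8630 whose mean reached 10 CPM, Pcca (Pearson r 0.957), then Eri2 (0.956) and Aldh1l1 (0.955). For Oxct1 these were Ndufb7 (0.985), Letm1 (0.982) and Pdhb (0.980), and for Acat1 Heatr5b (0.947), Trappc11 (0.941) and Cox7b (0.929). For Bdh2 they were RGD1304770 (0.879), Man1a1 (0.872) and Bcap31 (0.862), and for Aacs Ptcd1 (0.898), Rab11fip1 (0.887) and Cwc25 (0.848). With the group means removed, Bdh1 kept r = 0.20 with Pcca, 0.435 with Eri2 and 0.04 with Aldh1l1, whereas Oxct1 kept 0.92 with Ndufb7 and Acat1 0.90 with Heatr5b. Among the members, r within groups was 0.74 for Bdh2 and Oxct1, 0.70 for Oxct1 and Acat1 and 0.69 for Bdh2 and Acat1, while Bdh1 and Oxct1 had r = −0.00027. All points share their libraries and scaling, so these are descriptions.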

How the data were processed

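RNA of the renal cortex was sequenced after depletion of ribosomal RNA with a directional kit. Per the labels, the submitters' processing notes name Trimmomatic 0.38, Bowtie2, RSEM 1.3.0, edgeR and the build rn6. The authors deposited a table of normalized signal values, which are CPM with edgeR's TMM factors. The reads behind them were recovered as whole numbers (100% of the values, tolerance 1e-06), and recomputed values differed by at most 1.11e-15. Between 7.25% and 15.2% of the reads fell on Rn28s and Rn45s, both ribosomal RNA genes. No pair of rats within a group differed by as little as sampling noise (chi-square per gene 5.07 to 46.0).

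Groups were compared with limma 3.58.1 in R 4.3.3 (trend, two-sided) on log2(CPM + 1), all 12 rats in a joint model, which understates changes of low genes. The Benjamini-Hochberg adjustment covered 11633 genes, and an adjusted p under 0.05 was called. Single genes also had an exact permutation test. On the recovered reads, edgeR 4.0.16 called 2193, 373 and 3218 genes from ZL to ZF, from ZF to treated and from ZL to treated rats, and limma 2185, 366 and 3184. These comparisons share rats in pairs. DESeq2 1.42.0, other scalings, filters, pseudocounts, weights, a term for the rat number and leaving out each rat were alternatives. The code was tested on simulated data.

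The named genes were the members, Slc16a1, Slc16a7, Dbp and Arntl, up to 3 called genes with the largest change per list and comparison, the leading markers, and the 3 genes most like each member. Genes named outside this rule, such as Slc5a8, Alb, Plin1, Fabp4, Etfa, Etfdh, Insig1, Acat2 and Dcn, were added after their values were seen. The members and lists were chosen with earlier results of these data known. Some genes of the pathway are not reported here. Bdh1 overlaps a lncRNA, Acat1 a pseudogene and Slc16a7 a lncRNA in the annotation.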

Additional observations from a re-analysis of the deposited data

Results flagged for a closer look

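Among 37 members and pathway genes, 111 groups of 4 rats were searched for a rat far from the other 3, and 5 were set apart, where chance alone gives about 5.55 (1 in 20). Acadm in ZF rat 4 was at 335 CPM, with the others at 267 to 278. Mccc1 in ZF rat 2 was at 96.7 CPM, with the others at 103 to 104. Bcat2 in ZL rat 4 was at 76.5 CPM, with the others at 106 to 110. Fh in ZF rat 4 was at 158 CPM, with the others at 132 to 133. Cyp4a1 in ZF-SGLT2i rat 4 was at 101 CPM, with the others at 125 to 130. None of the 5 members was among them.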

How the results depend on the processing

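The falls of Bdh1 and Oxct1 in ZF and in ZF-SGLT2i against ZL kept their direction and passed under all 23 alternatives. The rat numbers did not pair the samples (correlations of same-numbered rats from −0.376 to 0.253), and a term for them, the replicate block, gave 807, 223 and 1502 called genes from ZL to ZF, from ZF to treated and from ZL to treated rats. The numbers of ZL rat 1, ZF rat 5 and ZF-SGLT2i rat 6 occur in no other group. The block fits these rats exactly, so its comparisons rest on fewer rats than the main fit. Without single rats these counts lay between 1384 and 2453, between 176 and 569, and between 2238 and 3302. ZL rat 1 and ZF rats 2 and 3 lowered the first (1384, 1454 and 1426). For ZF-SGLT2i against ZF the count was 206, 184, 188 and 569 without ZF rats 2, 3, 4 and 5, and 176, 209 and 181 without ZF-SGLT2i rats 3, 4 and 6. It was 689 with array quality weights and 641 with DESeq2. In ZF against ZL, 953 genes were called higher and 1232 lower, which became 2224 and 627 with the library size without ribosomal RNA and 1103 and 942 with quantile normalization. In ZF-SGLT2i against ZL, 1441 and 1743 became 2694 and 1030, and 1608 and 1467. That library size put the median log2 fold change of all genes at 0.11 in both comparisons, from −0.0077 and −7.0e-05. The cause of each change below was not tested.

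Bdh1 in ZF-SGLT2i against ZF passed with DESeq2 (0.27). Acat1 in ZF against ZL did not pass with quantile normalization (−0.17), the library size without ribosomal RNA (−0.23) or the replicate block (−0.33), and ranged from −0.42 to −0.30 without single rats. Acat1 in ZF-SGLT2i against ZL turned to 0.017 with quantile normalization. Bdh2 in the same comparison, near 0, turned to 0.024 with quantile normalization, 0.11 with the library size without ribosomal RNA, 0.14 with the block and 0.0033 with DESeq2, and ranged from −0.055 to 0.076 without single rats. Aacs in ZF against ZL turned to 0.0030 with median ratios, 0.11 with the library size without ribosomal RNA, 0.0033 with the block and 0.00048 with DESeq2, with a range of −0.084 to 0.085. Slc16a7 in ZF-SGLT2i against ZL turned to 0.016 with quantile normalization and 0.024 with the library size without ribosomal RNA.

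Called genes per list moved as follows. With the replicate block, 1 transport gene, 0 citrate cycle genes, 1 cytosolic lipid gene and 1 regulator were called between ZF and ZL. With it, 0 genes of branched-chain breakdown and 2 regulators were called between treated and ZF rats, and 5 genes of branched-chain breakdown, 3 of the citrate cycle and 4 cytosolic lipid genes between treated and ZL rats. With quantile normalization and with the library size without ribosomal RNA, branched-chain breakdown had 6 and 5 in ZF-SGLT2i against ZF and the citrate cycle 2 and 3 in ZF against ZL, and the latter gave branched-chain breakdown 7 in ZF-SGLT2i against ZL. In ZF-SGLT2i against ZF, array quality weights and DESeq2 gave 9 and 7 for branched-chain breakdown, 1 each for transport and 2 each for cytosolic lipid genes. A fit of only the 2 groups compared gave 1 for transport and 2 for lipid genes there and 5 for lipid genes in ZF against ZL. Without single rats, in ZF-SGLT2i against ZF, transport ranged from 0 to 1, branched-chain breakdown from 1 to 5, lipid genes from 1 to 2 and regulators from 2 to 4. The citrate cycle ranged from 4 to 14 and lipid genes from 5 to 10 in ZF against ZL, and lipid genes from 7 to 11 in ZF-SGLT2i against ZL. No other call of a member changed. Aacs rested on the fewest reads of the members, and its intervals leave room for changes in either direction.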
